A study of Mus musculus with 8 samples.

Results

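The comparison described here set mouse osteoblasts grown with Jagged1-overexpressing tumour cells against the same osteoblasts grown with vector control tumour cells, all of them treated with MRK-003, an inhibitor of gamma-secretase. It asks which effects of tumour-cell Jagged1 on osteoblasts stay when gamma-secretase is blocked. Its members were the 4 arrays of the groups labelled vector MRK-003 and Jagged1 MRK-003, 2 biological replicates each, out of 8 arrays in the series. The other 4 arrays carried the same pair of co-cultures in the solvent DMSO and served as the comparison in which gamma-secretase was active. Every group was a co-culture of MC3T3-E1 cells, an osteoblast line from mouse skull bone, with tumour cells in alpha MEM with serum, so no array shows osteoblasts alone. MC3T3-E1 is 1 line. Not given in the sources used here are the tumour line and its species, the dose and time of MRK-003, and whether osteoblast RNA was kept apart from tumour RNA.

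Notch receptors are single-pass membrane proteins that are activated by ligands such as Jagged1 on a neighbouring cell. Ligand binding lets an ADAM protease cut the receptor outside the membrane and gamma-secretase cut it inside, which frees an intracellular domain that joins the DNA-binding protein RBPJ and a Mastermind coactivator to switch on genes such as Hes1, Hey1 and Nrarp. In the osteoblast lineage, Notch signalling is known for holding back maturation and for changing the signals that osteoblasts send to osteoclasts.

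Each array compared the co-culture RNA, labelled with Cy3, with a commercial mouse reference RNA labelled with Cy5. A level below is the log2 ratio of sample over reference, so levels of different genes are not compared, and a difference is the Jagged1 level minus the vector level. A value given for a treatment or slide without naming vector or Jagged1 cells is a difference. Replicate 1 of every group lay on slide 1 and replicate 2 on slide 2, and differences were taken within a slide and averaged. The share of spots with Cy3 well above background was 86.0% to 89.4% on slide 1 and 71.4% to 78.6% on slide 2, with median Cy3 signals of 76.5 to 204. On both slides the groups took the same positions, with Jagged1 MRK-003 in the last place beside vector MRK-003, so group and position on the slide cannot be told apart. In bulk RNA, fewer cells of a type and less RNA per cell cannot be told apart.

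Osteoblast markers were detected in both MRK-003 groups. All 26 measured genes of 27 on a list of osteoblast and bone matrix genes were well above background on the 4 arrays. So were 21945 of all 23441 genes tested and all 19 measured epithelial markers, so this count does not mark out a cell type. Against the reference, the 26 osteoblast genes averaged 0.72 and 0.94 on the vector arrays and 0.76 and 0.90 on the Jagged1 arrays. The 12 measured chondrocyte markers averaged 0.56, 0.68, 0.61 and 0.68 in the same order. Of single genes, Col1a1 (the main chain of bone collagen) was at 2.34 with vector cells and 2.32 with Jagged1 cells. Its other probes gave differences of 0.19 and 0.32. Mgp (a mineralisation inhibitor) was at 3.21 and 3.22, and Runx2 (the master regulator of the lineage) at 0.88 and 0.83. Markers of other cells were also above background: the 19 measured epithelial markers of 22 averaged -1.57 and -1.58 on the vector arrays and -1.61 and -1.59 on the Jagged1 arrays, and the 16 macrophage markers of 17 averaged -1.98, -1.97, -2.03 and -1.97 in the same order. The median epithelial marker was at -0.66 with vector cells and -0.62 with Jagged1 cells. Among the epithelial markers, the keratins Krt8 and Krt18 were at -4.76 and -5.06 with vector cells and at -4.99 and -5.00 with Jagged1 cells. No measured marker of these lists was below background in a whole group; the epithelial cadherin Cdh1 was not among the genes tested. The part of tumour RNA in the levels was not tested.

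No gene passed in MRK-003. By limma with Benjamini-Hochberg adjustment, 0 of 23441 genes were called between Jagged1 and vector co-cultures under the inhibitor (0%), and 253 had an unadjusted p under 0.05 (1.08%). In DMSO the same fit called 887 genes (3.78%), 323 higher (1.38%) and 564 lower (2.41%) with Jagged1 cells. The fitted differences in MRK-003 had an SD of 0.0975 over genes against 0.267 in DMSO, and their 1st and 99th percentiles were -0.25 and 0.26, against -0.72 and 0.81 in DMSO. The median gene's 95% interval reached 0.239 to either side, a 1.18-fold change. The interval lay within 1.5-fold for 22391 genes (95.5%) in MRK-003 and for 19118 (81.6%) in DMSO. For most genes a fitted difference past 1.5-fold under the inhibitor would thus lie outside the interval. The intervals hold for the reported processing only. That of Hey1 in MRK-003 was -0.08 to 0.70, and its value was 0.95 with local backgrounds as deposited. How far the background step shrank the differences of dim genes was not tested.

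The slides shared little of what differed in MRK-003. Over all genes, the difference on slide 1 and that on slide 2 had r = 0.061 in MRK-003 and 0.603 in DMSO, as a description over genes of 2 slides. Slide 1 had 75 genes past 1.5-fold higher and 59 lower in MRK-003, and slide 2 had 3 and 5. In DMSO the counts were 430 higher and 557 lower on slide 1 and 763 and 743 on slide 2. Past 1.5-fold the same way on both slides were 1 gene higher (0.00427%) and 0 lower (0%) in MRK-003, and 268 higher (1.14%) and 275 lower (1.17%) in DMSO. The 1 gene, named after its value was seen, was the transcript AK076665, whose probe lies on chromosome 3 at 18067678 to 18067737 (build mm7). AK076665 was at 1.06 and 0.54 with vector cells and at 1.92 and 1.14 with Jagged1 cells on slides 1 and 2, a difference of 0.72 (unadjusted p = 0.000568, not called by limma). Other processing gave more: 70 genes with the scanner software's processed signals, 70 with the values the authors deposited and 103 with Cy3 alone were past 1.5-fold on both slides in MRK-003, still with 0 called by limma.

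**Figure D1:**
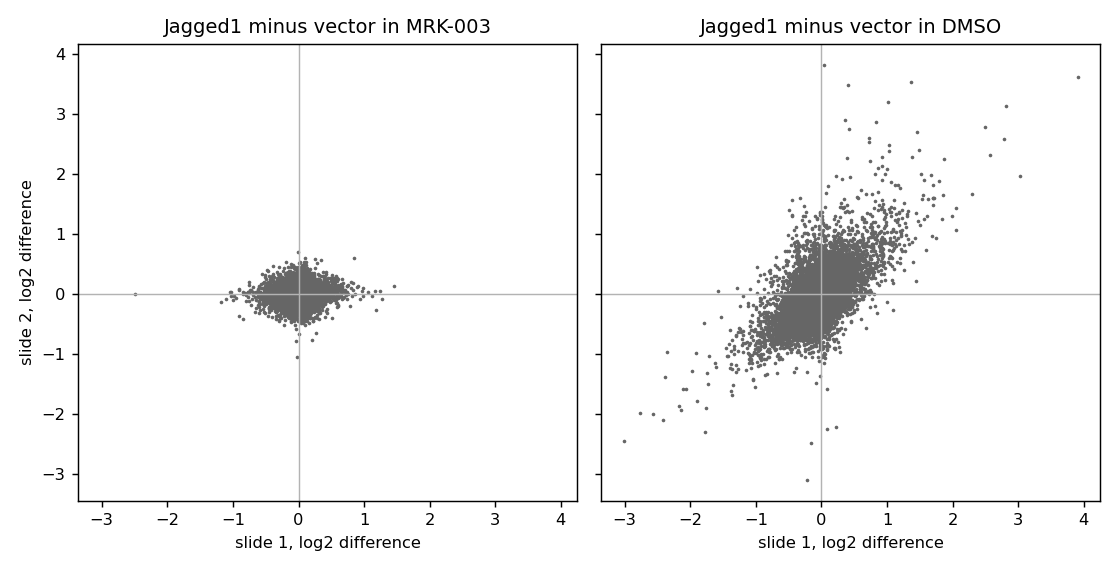
Jagged1 minus vector difference of each of 23441 genes on slide 1 (x axis) against slide 2 (y axis), both log2, in MRK-003 (left) and DMSO (right), on the same axes. The MRK-003 cloud is small and round (r = 0.061), with Fos at -2.50 on slide 1 as its farthest point, whereas the DMSO cloud is drawn out along the diagonal (r = 0.603).

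The genes that the question turns on are those of the Notch pathway, and the RBPJ complex can bind near the start of a gene. Its core motif, TGGGAA read on either strand, was looked for in the 250 bases before the start of the genes in RefSeq's promoter table (GRCm38.p6), which held 93 of the 136 genes named by the rule but not Hey1, Hes1 or Dtx4. It lay in 22.2% of the 203 matched genes called higher in DMSO, in 22.9% of the 402 called lower, in 23.6% of all 13184 matched genes and in 21.6% of all 32851 promoters of the table. Shown first are Notch3 (chr17:32166891-32167140, minus strand) and Nrarp (chr2:25180508-25180757, plus strand), which rose in DMSO and whose windows do not hold these letters. Shown next are Hes5 (chr4:154960673-154960922, plus strand) and Lfng (chr5:140607091-140607340, plus strand), members of the same lists that passed in neither treatment and whose windows hold the motif 2 times each, in capitals. The longer GTGGGAA, which contains TGGGAA, lay in 5.42% of all promoters, and both matches in Hes5 are of that form. It lay in 7.88% of the matched genes called higher in DMSO, 5.22% of those called lower and 6.17% of all matched genes. Of the 57 matched genes that passed the test between treatments described further down, 24.6% held TGGGAA and 0% held GTGGGAA. A match is only a description of the letters.
Notch3: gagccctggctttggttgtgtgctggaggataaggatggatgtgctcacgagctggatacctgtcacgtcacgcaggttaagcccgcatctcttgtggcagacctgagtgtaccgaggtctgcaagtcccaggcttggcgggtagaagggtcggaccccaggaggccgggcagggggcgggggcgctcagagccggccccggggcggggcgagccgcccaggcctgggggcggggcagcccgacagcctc
Nrarp: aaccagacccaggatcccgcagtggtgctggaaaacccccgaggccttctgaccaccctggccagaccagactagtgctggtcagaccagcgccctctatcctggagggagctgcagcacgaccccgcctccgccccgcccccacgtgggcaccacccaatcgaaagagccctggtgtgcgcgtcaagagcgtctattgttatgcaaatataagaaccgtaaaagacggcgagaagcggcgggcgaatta
Hes5: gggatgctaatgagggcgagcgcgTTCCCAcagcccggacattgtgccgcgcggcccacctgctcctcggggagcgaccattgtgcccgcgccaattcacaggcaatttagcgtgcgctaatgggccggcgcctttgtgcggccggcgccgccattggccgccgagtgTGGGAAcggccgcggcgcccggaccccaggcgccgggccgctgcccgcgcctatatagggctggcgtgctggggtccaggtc
Lfng: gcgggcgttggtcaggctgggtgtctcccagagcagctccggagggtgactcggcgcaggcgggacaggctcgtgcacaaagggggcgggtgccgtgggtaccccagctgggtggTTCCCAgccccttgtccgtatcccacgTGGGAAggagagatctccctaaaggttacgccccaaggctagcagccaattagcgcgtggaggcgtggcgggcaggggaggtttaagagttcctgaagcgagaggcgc

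Among direct targets of Notch, 0 of 18 measured genes of 19 passed in MRK-003 (0%), with a median difference of 0.016 against 0.0023 over all genes, 10 positive and 8 negative. In DMSO the same list had 4 called higher and 1 lower, with a median of 0.107. Over all genes, 1.38% were called higher and 2.41% lower in DMSO, the shares to set beside this and later list counts. Hey1, a transcriptional repressor and a strong reporter of Notch activity (probe on chromosome 3 at 8669867 to 8669926, build mm7), was at -2.68 and -2.17 with vector cells and at -2.11 and -2.12 with Jagged1 cells in MRK-003. Both Jagged1 arrays were above both vector arrays, by 0.57 on slide 1 and by only 0.05 on slide 2. In DMSO Hey1 was at -0.61 and -0.56 with vector cells and at 3.29 and 3.05 with Jagged1 cells, groups far apart on both slides. The fitted difference was 0.31 ± 0.16 in MRK-003 (SE, n = 2 per group, interval -0.08 to 0.70, adjusted p = 1 by limma) and 3.76 ± 0.16 in DMSO (13.5-fold, adjusted p = 0.000649). The MRK-003 value was 0.95 with local backgrounds as deposited, and 0.02 without vector MRK-003 replicate 1 and 0.60 without vector MRK-003 replicate 2, in no case called.

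Hes1, the other widely used target and also a repressor, was at -0.03 and 0.46 with vector cells and at 0.20 and 0.67 with Jagged1 cells in MRK-003, that is 0.23 higher on slide 1 and 0.22 higher on slide 2. The groups overlapped, because slide 2 was above slide 1 in both. The fitted difference was 0.22 (interval -0.06 to 0.51, a 1.17-fold level) and did not pass. In DMSO, Hes1 was at 1.34 and 1.80 with vector cells and at 2.20 and 2.27 with Jagged1 cells, a rise of 0.67 (adjusted p = 0.0335 by limma). The Hes1 difference between treatments was 0.44 (adjusted p = 0.359 by limma), so its Jagged1 difference in DMSO is not shown to be larger than that in MRK-003. With local backgrounds as deposited, the Hes1 difference in MRK-003 was 0.05. The rise of Hes1 in DMSO was lost without the replicate block (adjusted p = 0.545 by limma), and it was kept in 1 of 8 fits with an array left out.

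Nrarp, an ankyrin-repeat protein that feeds back on Notch signalling, was near the floor of the measurement under the inhibitor: 1 of 2 vector arrays and 0 of 2 Jagged1 arrays were well above background. Its levels were -0.14 and -0.17 with vector cells and -0.12 and -0.07 with Jagged1 cells, so no fold is given for MRK-003. In DMSO Nrarp rose by 0.97 (adjusted p = 0.00395 by limma). Notch3, both a receptor and a known target of Notch, was at -2.51 and -2.22 with vector cells and at -2.45 and -2.26 with Jagged1 cells in MRK-003. The Notch3 groups overlapped and differed by 0.01 (interval -0.26 to 0.28), while in DMSO Notch3 rose by 1.65 from -1.97 and -1.98 to -0.28 and -0.38 (adjusted p = 0.00211 by limma). Its MRK-003 value was 0.40 with local backgrounds as deposited, not called. Heyl, a further Hes-related repressor, differed by -0.05 in MRK-003 and 0.31 in DMSO, called in neither. Hes5 differed by 0.00 in MRK-003 and 0.09 in DMSO, Hes7 by 0.19 and 0.02, Myc by 0.06 and 0.00 and Gata3 by -0.02 and 0.31, none of them called. Ccnd1, a cyclin that drives entry into the cell cycle, fell by 0.50 in DMSO and differed by -0.01 in MRK-003. With an array left out, the DMSO call was kept in 8 of 8 fits for Hey1, Notch3 and Nrarp and in 0 of 8 for Ccnd1.

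**Figure D2:**
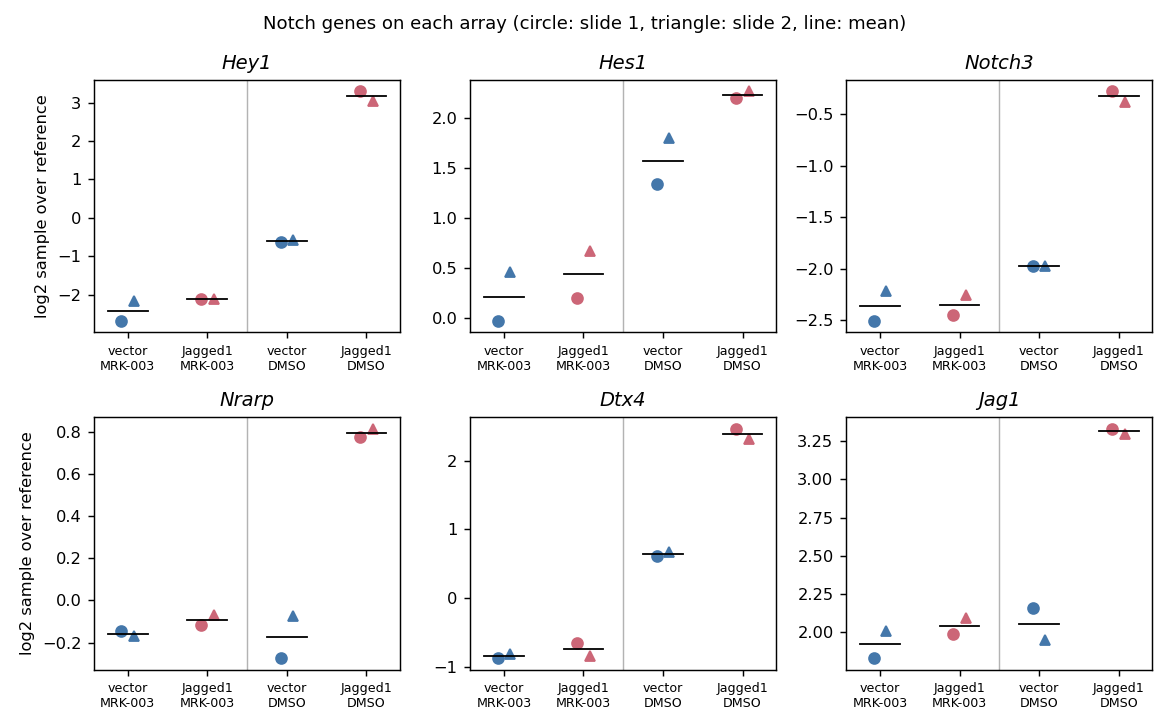
Levels of 6 Notch genes, as log2 sample over reference (y axis, a scale of its own for each gene), on the 2 arrays of each group (x axis); circles are slide 1, triangles slide 2 and lines the group means. In MRK-003 the widest gap between the vector and Jagged1 means is that of Hey1, 0.31, with both Jagged1 arrays above both vector arrays. In DMSO the Jagged1 arrays lie above both vector arrays for each gene, by 3.76 in the mean for Hey1.

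Of the receptors, 4 of 4 were measured and 0 passed in MRK-003, while 2 passed in DMSO, both higher. Notch1 was at 0.67 and 0.43 with vector cells and at 0.93 and 0.42 with Jagged1 cells under the inhibitor, 0.27 higher on slide 1 and -0.01 on slide 2. The fitted Notch1 difference of 0.13 (interval -0.13 to 0.39) compares with a rise of 0.89 in DMSO (adjusted p = 0.0108 by limma). Notch2 differed by -0.07 and Notch4 by 0.06 in MRK-003. Among the ligands, 6 of 8 were measured. Jag1 itself, which the tumour cells were made to overexpress, was at 1.83 and 2.01 with vector cells and at 1.99 and 2.09 with Jagged1 cells in MRK-003, and the groups overlapped. In DMSO Jag1 was at 2.15 and 1.95 with vector cells and rose to 3.33 and 3.30 with Jagged1 cells. The Jag1 difference was 0.12 in MRK-003 (interval -0.14 to 0.38) and 1.27 in DMSO (adjusted p = 0.00363 by limma). In MRK-003 its probe thus showed no more Jag1 message with the overexpressing cells beyond that interval. The other Jag1 probe, well above background on 2 of 4 MRK-003 arrays, gave 0.17. Whether these probes read the Jag1 message made by the tumour cells was not tested. Dll1, Dll3 and Dll4, the Delta-like ligands, differed by 0.01, -0.12 and -0.06 in MRK-003, none called.

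The protease side of the pathway had 0 of 8 measured genes of 9 called in either treatment. Aph1a, a subunit of gamma-secretase itself, had the lowest value of the Notch lists in MRK-003. It was at -0.41 and -1.23 with vector cells and at -1.05 and -1.47 with Jagged1 cells, lower by 0.64 and 0.24 on the slides, and the groups overlapped. The Aph1a difference of -0.44 (interval -0.75 to -0.13, unadjusted p = 0.0119) was not called by limma. The other Aph1a probe gave -0.14, and the scanner software's processed signals gave -0.14 and Cy3 alone -0.09 for the gene. The catalytic subunit Psen2 differed by 0.01, Ncstn by -0.02 and Psenen by 0.03, each with an interval within 1.5-fold. Adam10, the sheddase that makes the cut before gamma-secretase, differed by 0.22 in MRK-003 and -0.43 in DMSO, called in neither.

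Among 24 measured genes of 25 for the nuclear complex and modulators of Notch, 0 passed in MRK-003 and 2 were higher and 1 lower in DMSO. Dtx4, a member of the Deltex ubiquitin ligases that act on Notch, was at -0.88 and -0.81 with vector cells and at -0.65 and -0.84 with Jagged1 cells under the inhibitor. Jagged1 was higher by 0.22 on slide 1 and at -0.03 on slide 2. In DMSO Dtx4 rose by 1.75 from 0.61 and 0.66 to 2.46 and 2.31 (adjusted p = 0.000925 by limma), against 0.10 in MRK-003 (interval -0.14 to 0.33). Rbpj, the DNA-binding core, differed by -0.07, and Maml1, Maml2 and Maml3, the Mastermind coactivators, by -0.02, 0.09 and 0.06 in MRK-003. The fringe glycosyltransferases Lfng and Mfng differed by -0.10 and 0.11, and Numb, which lowers Notch at the membrane, by -0.08. Kat2b, an acetyltransferase that joins the Notch complex, fell by 0.55 in DMSO and was at 0.02 in MRK-003; its DMSO call was kept in 0 of 8 fits with an array left out.

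The genes called in DMSO were then followed into the MRK-003 arrays, which shared no array with the DMSO comparison and entered its calls only through the common estimate of the spread. The 323 genes called higher in DMSO had a median difference of 0.784 there, which their choice set, and of 0.048 in MRK-003. In MRK-003, 216 of them were positive (66.9%, against 51.1% of all genes), 0 were called and 0 were past 1.5-fold. Their median was 0.085 on slide 1 and 0.0039 on slide 2, with 223 and 166 of 323 positive, so the lean towards the DMSO direction was that of slide 1. Without vector MRK-003 replicate 2 the median was 0.136, and the lowest with 1 array left out was -0.0087. The 564 genes called lower had a median of -0.624 in DMSO and of 0.0018 in MRK-003, with 288 positive. The interval lay within 1.5-fold in MRK-003 for 291 of the 323 and for 555 of the 564, against 95.5% of all genes. Because the common estimate of the spread also entered the DMSO calls, the width of these intervals was partly set by the choice of the genes. Of the 323 and 564, 308 and 564 were well above background on all 4 arrays, against 21945 of all 23441 genes.

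The 91 genes over 2-fold higher in DMSO had a median of 0.068 in MRK-003, the median gene keeping 5.17% of its DMSO difference, and 70 shared the DMSO sign on slide 1 and 49 on slide 2. The 64 genes over 2-fold lower had a median of -0.0070, with 38 and 27 sharing the sign. Sets chosen with no MRK-003 array in the choice, past 1.5-fold on both DMSO slides, had medians of 0.030 (268 higher) and -0.0012 (275 lower) in MRK-003. Of these, 1 gene was past 1.5-fold the DMSO way in the mean, Fos, which is described further down. Over all genes the differences in the 2 treatments had r = -0.0047, as a description. DMSO calls numbered 41 without the replicate block and 108 with local backgrounds as deposited. They numbered 161 and 133 without vector DMSO replicate 1 and 2, 347 without Jagged1 DMSO replicate 2, 503 without either vector MRK-003 array and 476 without either Jagged1 MRK-003 array.

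**Figure D3:**
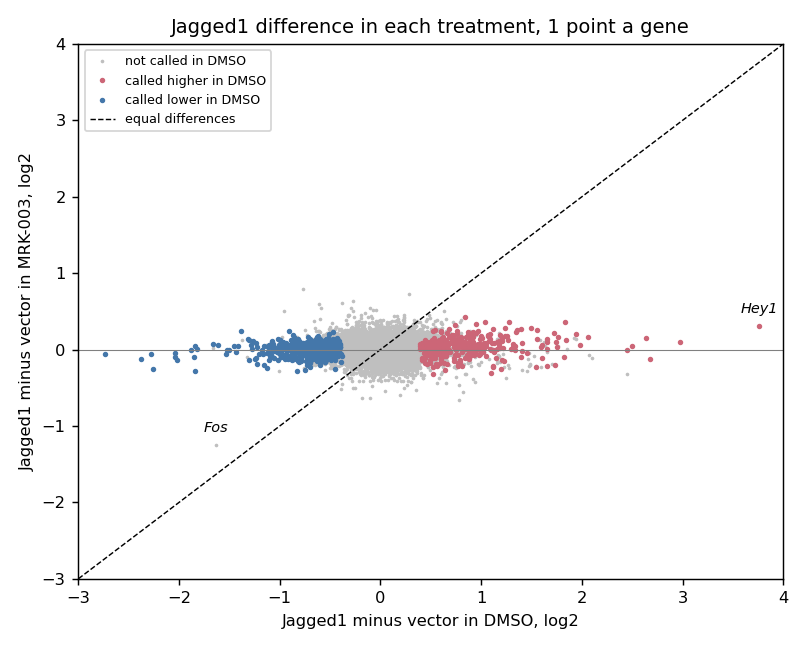
Jagged1 minus vector difference in DMSO (x axis) and MRK-003 (y axis), both log2 on equal scales, 1 point a gene; red and blue points were called higher and lower in DMSO by limma, and the dashed line marks equal differences. The called genes lie along the horizontal line, with medians of 0.048 (red) and 0.0018 (blue) in MRK-003; Fos is the lowest point at -1.25.

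The genes with the largest rises in DMSO show this level by level. Cdh15, a muscle-lineage cadherin, was at -0.78 and -0.81 with vector cells and at -0.76 and -0.64 with Jagged1 cells in MRK-003, against a rise of 2.97 in DMSO. Mcam, an adhesion molecule of the vessel wall and of stromal progenitors, was at -1.81 and -1.83 with vector cells and at -2.08 and -1.81 with Jagged1 cells. Its difference of -0.13 compares with a rise of 2.68 in DMSO. For both genes the MRK-003 arrays lay together and below the DMSO Jagged1 arrays. Fap, a fibroblast activation protease, differed by 0.00 in MRK-003, with 1 of 2 arrays well above background in each group, and rose by 2.44 in DMSO. Igfbp5, a growth factor-binding protein of bone, differed by 0.16 and 2.06, with 0.43 in DMSO from its other probe, and Pde9a, a phosphodiesterase, by 0.06 and 1.98. Unc5b, a netrin receptor, had the highest MRK-003 difference of the 12 named rises, 0.36, with 0.63 on slide 1 and 0.08 on slide 2. Ccn2, a matrix protein induced by TGF-beta, rose by 2.64 in DMSO. In MRK-003, Ccn2 differed by 0.37 on slide 1 and -0.07 on slide 2.

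The largest falls in DMSO were likewise small differences under the inhibitor. Tnfrsf19, a receptor of the TNF family, was at 1.73 and 2.47 with vector cells and at 1.58 and 2.51 with Jagged1 cells in MRK-003, a difference of -0.06 against a fall of 2.73 in DMSO. Cd34, a surface sialomucin of progenitors, was at -1.003 and -0.52 with vector cells and at -1.21 and -0.49 with Jagged1 cells, a difference of -0.09 against -2.04. Nkd2, an inhibitor of Wnt signalling, differed by 0.05 against -1.84, and the ligand Wnt10a by 0.00 against -1.89. The MRK-003 groups overlapped for Tnfrsf19, Cd34, Nkd2 and Wnt10a. Ccn3, a matrix protein of the same family as Ccn2, was lower by 0.53 on slide 1 and at 0.03 on slide 2. Ogn, the bone matrix proteoglycan osteoglycin, had the lowest MRK-003 difference of the 12 named falls. It was at 0.60 and 1.22 with vector cells and at 0.20 and 1.06 with Jagged1 cells. The Ogn difference of -0.27 (unadjusted p = 0.0285) was 14.9% of its DMSO fall of 1.84 and was not called.

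Whether the Jagged1 effect differed between the treatments was tested directly as the DMSO difference minus the MRK-003 difference, and 90 genes passed by limma (0.384%), 46 positive (0.196%) and 44 negative (0.188%). All 90 lie among genes called in DMSO, and their median MRK-003 difference was 0.013. Hey1 had 3.45 ± 0.23 (SE, n = 2 per group, adjusted p = 0.00927 by limma), Dtx4 1.65 (adjusted p = 0.0139), Notch3 1.64 (adjusted p = 0.0232), Jag1 1.14 (adjusted p = 0.0428) and Nrarp 0.90 (adjusted p = 0.047). Hes1, Notch1 and Il6 did not pass this test. The MRK-003 part of the Nrarp value was near the floor, with 0 of 2 Jagged1 arrays well above background. The Nrarp value ran from 0.32 to 2.68 over the other fits. The number passing depended on the processing and on each array: it was 4 without the replicate block, 0 with local backgrounds as deposited, 2 with the scanner software's processed signals or the deposited value table, and 1 with Cy3 alone. Leaving out 1 array gave 9 and 7 (vector DMSO replicates 1 and 2), 51 and 54 (Jagged1 DMSO), 1 and 1 (vector MRK-003), and 0 and 1 (Jagged1 MRK-003). Hey1 kept its call in 6 of 10 other settings and 4 of 8 fits without an array, being lost without either vector DMSO array or either Jagged1 MRK-003 array. Dtx4 and Notch3 kept theirs in 5 of 10 and 2 of 8, Jag1 in 4 of 10 and 0 of 8, and Nrarp in 3 of 9 and 0 of 8. Their signs were the same in every one of these fits.

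Osteoblast factors that act on osteoclasts had 0 of 20 measured genes of 24 called in MRK-003, with a median of 0.037 (0.084 on slide 1 and -0.0017 on slide 2). In DMSO 6 were higher and 1 lower. Il6, a cytokine that promotes osteoclast formation, was at 0.78 and 1.41 with vector cells and at 1.19 and 1.44 with Jagged1 cells in MRK-003. Its Jagged1 arrays were higher by 0.41 on slide 1 and 0.03 on slide 2, and the groups overlapped. The fitted Il6 difference of 0.22 had a wide interval, from -0.47 to 0.90, which also holds a 1.5-fold rise, and its value was -0.17 with local backgrounds as deposited. In DMSO Il6 rose by 1.73 from 2.45 and 1.73 to 4.01 and 3.62 (adjusted p = 0.0271 by limma), a call lost without the replicate block (adjusted p = 0.126 by limma). The difference of 1.51 between the treatments did not pass (adjusted p = 0.217 by limma). Tgfb2, a growth factor stored in bone matrix, differed by 0.71 on slide 1 and 0.03 on slide 2 in MRK-003, against 1.18 and 1.36 in DMSO. Vegfa and Tgfb1 differed by 0.07 and 0.01 in MRK-003 and rose by 0.93 and 1.09 in DMSO. Ccl9, a chemokine for osteoclast precursors, differed by -0.05 in MRK-003 and rose by 0.99 in DMSO.

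Proliferation genes had, after the 4 Notch receptors, the widest gap between the medians of the treatments among the lists. Of 30 genes of the cell cycle and DNA replication, all measured, 14 were called lower in DMSO, against 2.41% of all genes. In MRK-003 0 were called, against 0% of all genes. The medians were -0.514 in DMSO and 0.0092 in MRK-003. The MRK-003 median was 0.0089 on slide 1 and 0.0091 on slide 2. Of the 30 intervals, 29 lay within 1.5-fold, as did those of 95.5% of all genes. Pcna, the replication clamp, differed by 0.03 in MRK-003 and -0.70 in DMSO. Birc5, a survival factor of dividing cells, differed by 0.06 and -0.65, and Bub1, a spindle checkpoint kinase, by -0.01 and -0.82. With an array left out, the DMSO call was kept in 5 of 8 fits for Pcna and Birc5 and in 2 of 8 for Bub1. Each of these calls was lost without the replicate block (adjusted p = 0.243, 0.631 and 0.65 by limma). Cdk1, the kinase that starts mitosis, had the lowest MRK-003 difference of the list, -0.14, and -0.49 in DMSO. Its other probe gave 0.05 in MRK-003 and 0.01 in DMSO, and its DMSO call was kept in 0 of 8 fits with an array left out. Cholesterol synthesis had 6 of 24 genes lower in DMSO (median -0.287) and 0 in MRK-003 (median 0.022). Idi1, an early enzyme of the path, differed by 0.05 and -0.88. Ebp, a sterol isomerase, was at 0.71 and 0.89 with vector cells and at 0.78 and 1.03 with Jagged1 cells in MRK-003, and fell by 1.08 in DMSO. No test of the whole list was run on either difference.

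Across the remaining lists the medians in MRK-003 were between -0.035 and 0.062, and 0 members were called in any of the 24 lists. Matrix proteases and their inhibitors had the highest median, 0.062, with 21 of 29 positive, but it was 0.086 on slide 1 and 0.0013 on slide 2. There Mmp13, the collagenase of bone, differed by 0.09 against a rise of 1.10 in DMSO, and Loxl1, a collagen crosslinking enzyme, by 0.01 against 1.30. Cytokines and chemokines had the lowest median, -0.035, with 10 of 25 positive. In the TGF-beta and BMP list (median 0.044) Inhba, a subunit of activin, differed by 0.01 against a rise of 1.16 in DMSO. Among 26 osteoblast genes, of which 5 fell in DMSO, Alpl, the alkaline phosphatase of mineralising cells, differed by 0.04 in MRK-003, against -1.12 in DMSO. Contractile genes (median 0.011) held Cald1, an actin-binding regulator, at 0.57 and 0.30 on the slides, and the Wnt list (median 0.0049) held Lef1, a transcription factor of that pathway, at 0.56 and 0.10. Neither was called. Epithelial markers, which could report tumour cells, had a median of -0.033 in MRK-003 and 0.101 in DMSO, with 0 of 19 called in either. Macrophage and endothelial markers had medians of -0.030 and 0.0087 in MRK-003.

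**Figure D4:**
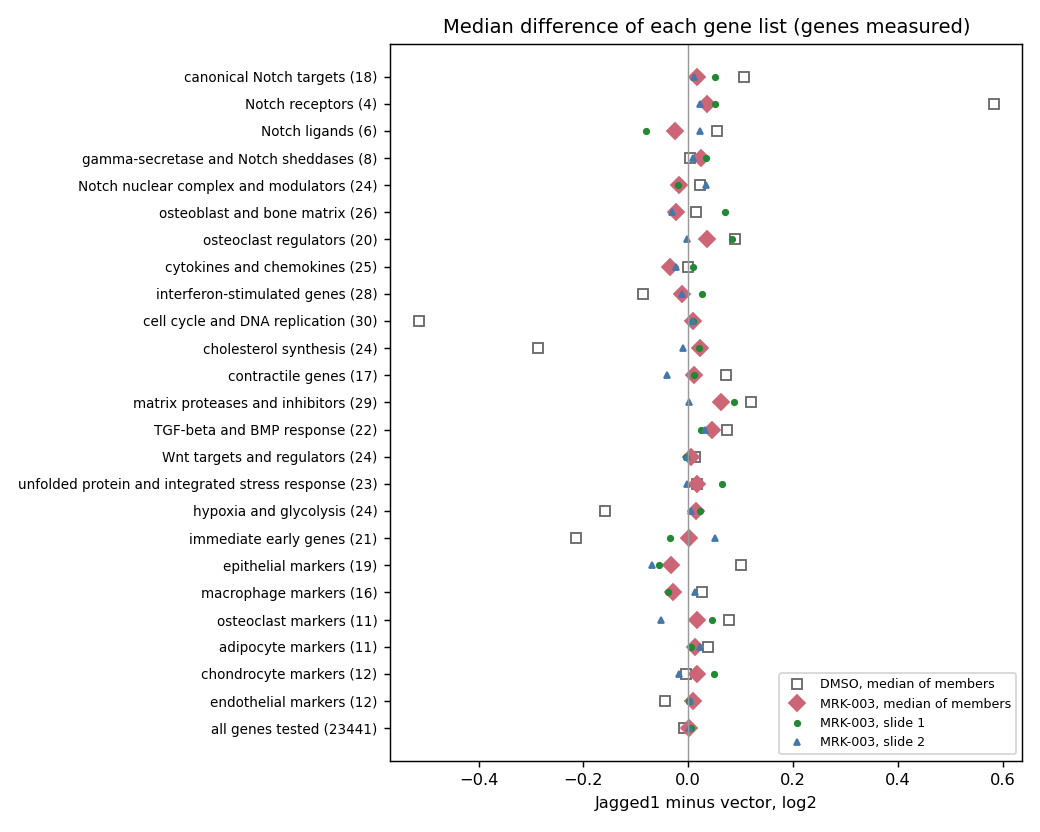
Median Jagged1 minus vector difference (x axis, log2) of the measured members of each of 24 gene lists and of all genes (y axis, number measured in brackets), in DMSO (open squares), MRK-003 (filled diamonds) and on each MRK-003 slide (small circles and triangles). The MRK-003 medians lie between -0.035 and 0.062, while the DMSO medians reach -0.514 for the cell cycle and 0.583 for the 4 Notch receptors.

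Immediate early genes held the lowest difference of all genes in MRK-003, and it came from 1 slide. Fos, a transcription factor induced within minutes by many stimuli, was at -0.58 and -1.49 with vector cells and at -3.07 and -1.49 with Jagged1 cells in MRK-003. The Jagged1 array of slide 1 was far below the other 3, and the slide 2 arrays were alike. The Fos difference of -1.25 (interval -2.42 to -0.07, unadjusted p = 0.0408) was not called by limma. It was -2.00 without vector MRK-003 replicate 2, -0.49 without vector MRK-003 replicate 1, -2.16 without Jagged1 MRK-003 replicate 2 and -0.33 without Jagged1 MRK-003 replicate 1. In DMSO Fos was at 0.91 and 0.66 with vector cells and at -1.07 and -0.63 with Jagged1 cells, with an adjusted p of 0.134 by limma. Fosb and Dusp1, chosen after their values were seen, were lower by 0.76 and 0.73 on slide 1 and at 0.20 and 0.06 on slide 2, whereas Egr1, Jun and Junb were between -0.15 and 0.10 on both. Over the 21 genes the median was -0.035 on slide 1 and 0.051 on slide 2.

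None of the 20 genes named for the smallest p values in MRK-003 was called the same way in DMSO. Given the 1.08% of genes with an unadjusted p under 0.05, these are described as values only. Cpeb2, an RNA-binding regulator of translation, was at -0.45 and -0.54 with vector cells and at -0.11 and 0.03 with Jagged1 cells, a difference of 0.45 (unadjusted p = 0.00145) against -0.33 in DMSO. The other Cpeb2 probes gave -0.05 and -0.14, and the mean over its probes was 0.09. Gpatch2 was at 0.58 and 0.22 with vector cells and at 0.96 and 0.59 with Jagged1 cells, a difference of 0.37 with 0.38 and 0.37 on the slides. The other Gpatch2 probe gave 0.05, and the difference was 0.12 with local backgrounds as deposited. Galnt1, an enzyme that starts O-glycosylation, was at 0.44 and 0.56 against 0.85 and 0.86, and Tnnc1, a troponin subunit, at 1.58 and 0.77 against 1.83 and 1.35. The 10 genes of this rule with positive values ranged from 0.25 to 0.45. On the negative side Kcnmb1, a potassium channel subunit, was at 0.14 and 0.24 with vector cells and at -0.19 and -0.04 with Jagged1 cells, a difference of -0.30 against -0.24 in DMSO. Egln3, an oxygen-sensing hydroxylase, differed by -0.33 in MRK-003 and -0.17 in DMSO, and Elf3, an epithelial transcription factor, by -0.28 and -0.29, none of them called in either. Prkcz, an atypical protein kinase C, differed by -0.32 in MRK-003 and rose by 0.53 in DMSO (adjusted p = 0.0267 by limma). Its DMSO call was kept in 0 of 8 fits with an array left out. The Prkcz value in MRK-003 was 0.28 with local backgrounds as deposited, and its other probe gave -0.08. In MRK-003 both Jagged1 arrays lay above both vector arrays for 1960 genes (8.36%) and below both for 1815 (7.74%).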

How the data were processed

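Per the labels, 175 ng of total RNA from each of 8 co-cultures was amplified and labelled with Cy3, and reference RNA with Cy5. Per the file headers, probe positions are on build mm7 and the authors read intensity values off the scans in Agilent Feature Extraction 9.5.3.1. Taken from the deposited intensity values were mean signals, median local backgrounds and, as an alternative, processed signals. The deposited flags of each spot are scores of 0 or 1 for outliers and brightness. The authors' deposited table holds log2 ratios: after removal of a constant for each array, 100% of its values were within 0.02 of the processed signals' log2 Cy3 over Cy5, which settles scale, centring and direction (column medians 0.1135 to 0.2068).

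Local backgrounds over 2 times the array median (at most 0.129% of spots) were set to the median. Normexp (offset 50) and loess within arrays followed, with control spots given no weight. Outlier spots removed 303 of 41174 probes. Probes whose Cy3 was not well above background on the 2 arrays of any group were dropped as dim, 7811 in all, leaving 33060. The brightest probe stood for each of 23441 genes. RefSeq accessions named 22951 probes, and 18223 kept the file's name.

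limma 3.58.1 in R 4.3.3 fitted 4 group means and the replicate number as a block to all 8 arrays (3 residual degrees of freedom), with Benjamini-Hochberg adjusted p under 0.05 in each comparison. It was tested on simulated data with independent normal noise of each gene's fitted spread. That test left out background and normalization, so it cannot decide how far the calls depend on the processing. Replicate numbers pair the samples because each marks 1 slide and scan in the headers: deviations of same-numbered arrays correlated at 0.372 to 0.854. The p-values rest on 2 arrays per group, whose number limits the precision. Alternatives changed the block, background, normalization, filter, probe choice, values and arrays.

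Named genes were all members of the 5 Notch lists, 10 positive and 10 negative genes with the smallest p in MRK-003, the 12 largest DMSO calls each way with a RefSeq symbol, 2 members of each other list, Jag1, Hey1, Hes1 and Il6. Another 21 genes are named outside this rule, as examples chosen with their values seen. No gene met the rule for DMSO calls kept past 1.5-fold on both MRK-003 slides. The genes, the 24 lists (467 symbols) and the rules were chosen with earlier results of these data known. A few named genes are not reported here.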

Additional observations from a re-analysis of the deposited data

Results flagged for a closer look

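The Jagged1 difference differed between DMSO and MRK-003 for the named genes below, by limma's test of that difference at an adjusted p under 0.05; the highest of these adjusted p values was 0.0499. The values are the DMSO difference minus the MRK-003 difference, log2. On the positive side they were 3.45 for Hey1, 2.88 for Cdh15, 2.80 for Mcam, 2.45 for Fap, 1.92 for Vill, an actin-binding villin-like protein, and 1.92 for Pde9a. They were 1.65 for Dtx4, 1.64 for Notch3, 1.29 for Loxl1, 1.14 for Jag1 and 1.08 for Tgfb1. They were 1.05 for Mylk, the kinase of myosin light chain, 1.05 for Ccl9 and 0.90 for Nrarp, which was near the floor in MRK-003. On the negative side they were -2.67 for Tnfrsf19, -2.00 for Ccn3, -1.95 for Cd34, -1.89 for Nkd2, -1.83 for the transcription factor Trp63 and -1.75 for Rassf2. They were -1.56 for Ogn, -1.47 for Scx, a tendon transcription factor, -1.37 for Slc16a1, a lactate transporter, -1.18 for Ebp and -1.15 for Alpl. Their MRK-003 differences ran from -0.27 (Ogn) to 0.31 (Hey1), so most of each value was the DMSO difference. Probes of 1 gene disagreed in DMSO for some of these genes. Beside the named probe, at 0.98 for Mylk, its other probes gave 1.07 and -0.04. Rassf2 had -1.85 against -0.31, Mcam 2.68 against 0.70 and Nkd2 -1.84 against -0.70. Jag1 had 1.27 against 0.73, from a probe well above background on 5 of 8 arrays. Slc16a1 had -1.27 against -1.26 and -0.25, and Trp63 -1.82 against -0.38 and 0.03. The calls of this test depended on the processing. With local backgrounds as deposited no gene kept its call, and without the replicate block only Hey1, Mcam and Nkd2 of the genes above did. Array position on the slide went with group, and its part was not tested.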

How the results depend on the processing

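In MRK-003 limma called 0 genes under every setting and without each array in turn; unadjusted p under 0.05 was reached by 55 genes without the replicate block, 1322 in a fit of the 4 MRK-003 arrays alone and 555 with local backgrounds as deposited. Genes past 1.5-fold on both slides numbered 70 with processed signals, 0 with median centring in place of loess, 103 with Cy3 alone and 70 with the deposited table.

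The replicate block changed no MRK-003 call. Without the block, DMSO calls numbered 41 (32 higher, 9 lower; 323 and 564 with it) and interaction calls 4. DMSO and interaction calls were 108 and 0 with local backgrounds as deposited, 230 and 2 with processed signals (105 higher, 125 lower in DMSO), 118 and 1 with Cy3 alone (69 higher, 49 lower) and 227 and 2 with the deposited table; the cause was not tested. With Cy3 alone the median of all genes in DMSO was 0.12, against -0.0083 in the reported fit, a shift of 0.13. With 1 array left out, DMSO calls ran from 133 to 1074 and interaction calls from 0 to 54.

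The MRK-003 median of genes called higher in DMSO ran from -0.0087 to 0.136 with 1 array left out. That of genes called lower ran from -0.0468 to 0.0297, and was -0.0972 with local backgrounds as deposited, -0.00012 with no background correction, -0.0378 with processed signals, 0.0143 with median centring, -0.0566 with Cy3 alone, 0.0013 with no filter, 0.0024 with all 8 arrays above background, 0.0039 with the mean of probes, -0.0376 with the deposited table and -0.0012 for the set chosen on both DMSO slides, an alternative added after seeing the data; its slides differed by so little that each counts as moved. Of 2973 MRK-003 values of named genes, 81 changed sign by more than both the spread between slides and the standard error. Values that kept their sign were not counted, however far they went. With all arrays kept, AK076665 ran from 0.24 to 2.37 over the other settings, Hey1 from 0.30 to 0.95 and Cpeb2 from 0.09 to 0.66. The DMSO calls of 51 named genes were lost in 234 of 915 values and the interaction calls of 26 in 298 of 466, and 10 interaction values of other named genes passed only under an alternative. No value turned its sign while called. Slide 2 was dimmer, so low genes such as Nrarp were measured less well there.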
